A study of Rattus norvegicus with 20 samples.

Results

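Hippocampal gene expression was compared between 5 Del/+ and 5 wt male Long Evans (LE) rats, 10 of the 20 libraries of the series, taken by the sex and genotype on their labels. The Del/+ rats and their wt littermate controls were 24 weeks of age, and the labels give no litter. LE is an outbred stock, so the rats of a group are not genetically uniform. The Del/+ rats kept 1 copy of the interval from Sult1a1 to Spn, which was removed from the other chromosome with CRISPR/Cas9 in LE zygotes, and the wt rats kept both. Each library held polyA RNA of the hippocampus of 1 rat, and reads were counted on Ensembl genes, with library totals from 40908785 to 46141518 reads. The other 10 libraries, 5 wt and 5 Del/+ females of the same age, entered only the comparison of the sexes.

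The segment deleted in these rats is homologous to human 16p11.2, a chromosomal band whose loss is a recurrent copy number variant in autism spectrum disorders and intellectual disability. It holds genes of signalling (Mapk3, the ERK1 kinase, and Taok2, a kinase acting upstream of stress pathways), of protein turnover (Kctd13, an adaptor of the CUL3 ubiquitin ligase) and of transmitter release (Prrt2 and Doc2a). The hippocampus is a region used for memory, whose excitatory neurons carry large amounts of calmodulin-binding and CaMKII proteins at their postsynaptic sites.

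The deletion was made with 2 pairs of guide RNAs, 1 pair at each end of the interval. Their sequences are shown because they set which genes were lost. Capitals mark the bases that the guides of a pair share on opposite strands, 8 at the end before Sult1a1 and 18 at the end after Spn.
gR90, before Sult1a1: TGAGATTGatggccgcaaga
gR85, before Sult1a1: CAATCTCAcgtgtctgatgg
gR80, after Spn: caTTCATTGCTCAGAGCGGC
gR76, after Spn: caGCCGCTCTGAGCAATGAA
The guides of each pair thus overlapped on opposite strands.

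In the 10 male libraries, 15630 genes had enough counts to be tested. Normalised counts are counts scaled by TMM to the mean library size, fold changes are given on the log2 scale as Del/+ against wt with their standard error (SE), and adjusted p values come from edgeR's quasi-likelihood test with Benjamini-Hochberg adjustment over all 15630 genes. At an adjusted p under 0.05, 64 genes passed, 14 higher and 50 lower in Del/+ males, which is 0.409% of the genes tested, 0.0896% higher and 0.320% lower. Of these, 23 lay in the deleted interval and 41 outside it.

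The genes of the deleted interval were lower in Del/+ males by close to 1 log2 unit, the size of a loss of 1 copy of 2. Of 32 genes listed for the interval, 27 were tested, all 27 were lower, and 23 passed the test against a background of 0.409% of all genes tested. The 5 genes left out by the filter (Tbx6, Gdpd3, Zg16, AABR07005779.7 and LOC102552638) had at most 17 counts in any of the 10 libraries. The median log2 fold change of the 27 was -1.09, with a range from -1.50 to -0.61. The 95% confidence interval, unadjusted, held -1 for 21 genes, lay wholly below -1 for 6 and wholly above -1 for none.

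Among the signalling genes, Mapk3 had normalised counts of 4619, 3974, 4882, 4372 and 4057 in wt rats 1 to 5 and 1766, 2020, 1862, 1933 and 2415 in Del/+ rats 1 to 5. Taok2 varied little among the wt rats, at 9236, 9299, 9139, 9114 and 9196 in wt rats and 4472, 4670, 4378, 4090 and 4984 in Del/+ rats. For both, every Del/+ rat was far below every wt rat, with log2 fold changes of -1.13 ± 0.08 (SE, adjusted p = 2.54e-06, edgeR) and -1.03 ± 0.05 (adjusted p = 8.43e-08, edgeR). Kctd13, the CUL3 adaptor, went from 3378, 3504, 3835, 3673 and 3579 in wt to 1432, 1837, 1733, 1864 and 1677 in Del/+ rats (log2 fold change -1.07 ± 0.07 (SE), adjusted p = 6.49e-07, edgeR).

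Prrt2, a presynaptic membrane protein linked to paroxysmal movement disorders, was at 6609, 5832, 7096, 7492 and 6294 in wt and 2727, 2938, 2656, 2556 and 2157 in Del/+ rats. Sez6l2, a neuronal membrane protein, was at 24013, 21880, 23009, 21432 and 25178 and 9835, 8879, 9986, 9346 and 11246. Maz, a zinc finger transcription factor, was at 1549, 1379, 1252, 1270 and 1474 and 504.5, 445, 489.7, 412 and 599.6. The confidence interval ended below -1 for all 3, at -1.54 to -1.17, -1.38 to -1.08 and -1.71 to -1.28 log2 units. Spn, Cdipt and Aldoa were the other 3 of the 6. Aldoa, a glycolytic enzyme, counted 65522, 69510, 69466, 63947 and 64886 in wt and 28623, 29717, 30869, 30405 and 32589 in Del/+ rats, a log2 fold change of -1.13 ± 0.05 with an interval of -1.24 to -1.02.

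At the ends of the interval, Sult1a1, a sulfotransferase, was at 572, 520.4, 502, 553 and 489.9 in wt and 213, 236, 285, 206 and 176 in Del/+ rats. Spn, a sialoglycoprotein of white blood cells, was at 168, 138, 115.5, 165 and 205 and 70.3, 36.4, 72.0, 53.6 and 47.7. Both end genes thus separated the groups (-1.24 ± 0.12 and -1.50 ± 0.22 log2 units ± SE). The nearest tested genes beyond them in the RefSeq order of the GRCr8 assembly were Sgf29 before Sult1a1, with a log2 fold change of 0.05 ± 0.09 (adjusted p = 0.824, edgeR), and Cd2bp2 after Spn, at -0.02 ± 0.05 (adjusted p = 0.896, edgeR). The 4 tested interval genes that missed the threshold were Qprt, Kif22, LOC308990 and AABR07005779.6, each between 2.92 and 66.6 normalised counts in every rat. Their log2 fold changes were -0.63, -0.61, -0.92 and -1.09, and the groups overlapped in all but Qprt.

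**Figure D1:**
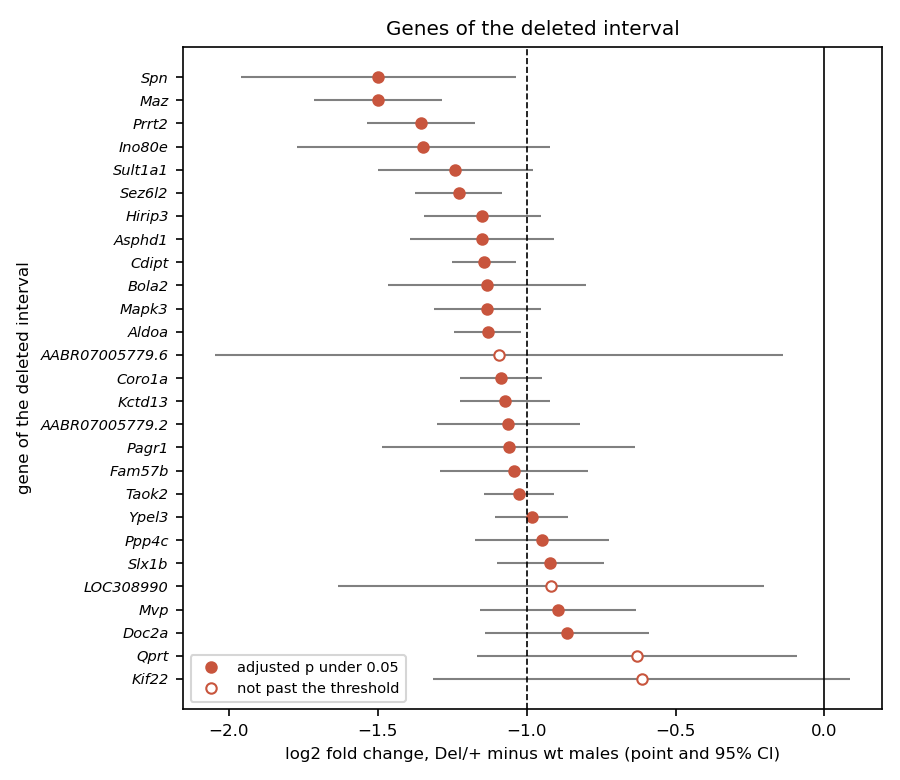
Log2 fold change (Del/+ against wt males, x axis) of the 27 tested genes of the deleted interval, with 95% confidence intervals. Dashed line, -1, the loss of 1 copy of 2. Filled points passed an adjusted p of 0.05 and open points did not. All 27 points lie below 0 and 21 intervals hold -1.

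Outside the interval, 41 of 15603 tested genes passed, 14 higher and 27 lower in Del/+ males. The changes were of different size in the 2 directions. The 27 lower genes had a median log2 fold change of -0.35 (from -1.35 to -0.25). The 14 higher genes had a median of 0.92 (from 0.27 to 1.72). For 40 of the 41, the 5 Del/+ and 5 wt values did not overlap, against 3.19% of all genes tested, a share that the choice of the genes by this same contrast makes large. Below the threshold the difference was broad. At an unadjusted p under 0.05, 7.38% of the tested genes were higher and 7.01% lower. With library size alone in place of TMM, the median log2 fold change of all genes moved from 0.01 to 0.12, and the 161 genes called outside the interval were then 153 higher and 8 lower.

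The number of genes called outside the interval rested on single rats. With 1 rat left out at a time, the count ranged from 4 (without wt rat 4) to 161 (without Del/+ rat 5), and it was 7 without wt rat 1, 6 without wt rat 3, 6 without Del/+ rat 3, 25 without wt rat 5, 16 without Del/+ rat 2, 18 without Del/+ rat 1, 85 without Del/+ rat 4 and 156 without wt rat 2. Nrgn, Cbln2 and Nhlh1 passed in all 10 of these fits, 14 genes in at least 5, and none of the 41 in 0. Log2 fold changes kept their sign for all 41 in all 25 alternative fits. The count of the deleted interval stayed between 21 and 23 with 1 rat left out.

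The smallest adjusted p outside the interval was that of Nrgn. Nrgn encodes neurogranin, a postsynaptic protein that binds calmodulin when calcium is low. Its normalised counts were 45497, 37933, 45950, 44617 and 39665 in wt rats and 28758, 28487, 28017, 32154 and 29339 in Del/+ rats. The highest Del/+ rat was below the lowest wt rat, and the mean ± SD (n = 5) was 42733 ± 3674 in wt and 29351 ± 1638 in Del/+ males (log2 fold change -0.54 ± 0.07 (SE), adjusted p = 0.00064, edgeR). Camk2a, the alpha subunit of the CaMKII kinase that calmodulin activates, was at 78947, 66928, 72180, 77154 and 79178 in wt and 57914, 55397, 60196, 65716 and 59208 in Del/+ rats. Its groups came close, with wt rat 2 next to Del/+ rat 4 (log2 fold change -0.33 ± 0.06 (SE), adjusted p = 0.0338, edgeR). Synpo, which encodes an actin-binding protein of the spine apparatus, was lower at -0.31 ± 0.06 log2 units (adjusted p = 0.046, edgeR). Hpca, the calcium sensor hippocalcin, counted 17842, 15120, 15875, 18442 and 17816 in wt and 13420, 10354, 12330, 13610 and 11646 in Del/+ rats, without overlap (log2 fold change -0.47 ± 0.08 (SE), adjusted p = 0.0169, edgeR). Anxa6, a calcium-dependent membrane-binding annexin, was at 11077, 10148, 11318, 10437 and 9664 in wt and 8253, 8243, 9183, 8364 and 8460 in Del/+ rats. Del/+ rat 3 was nearest to the wt group, which it did not reach (log2 fold change -0.31 ± 0.06 (SE), adjusted p = 0.0277, edgeR).

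At the presynaptic side, Cplx2, which encodes a complexin that binds the SNARE complex, was lower. It counted 54988, 55675, 59050, 62512 and 57426 in wt and 46476, 47521, 46278, 48205 and 47013 in Del/+ rats. The Del/+ values lay within a narrow band, all under the lowest wt value (log2 fold change -0.30 ± 0.05 (SE), adjusted p = 0.016, edgeR). Members of the DOC2 family, calcium sensors of transmitter release in the case of Doc2a and Doc2b, went in different directions. Doc2a lies in the deleted interval and was at -0.87 ± 0.13 log2 units. Doc2b, on another chromosome, was lower at -0.44 ± 0.08 (adjusted p = 0.0313, edgeR), and Doc2g was higher at 1.13 ± 0.20 (adjusted p = 0.0213, edgeR).

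**Figure D2:**
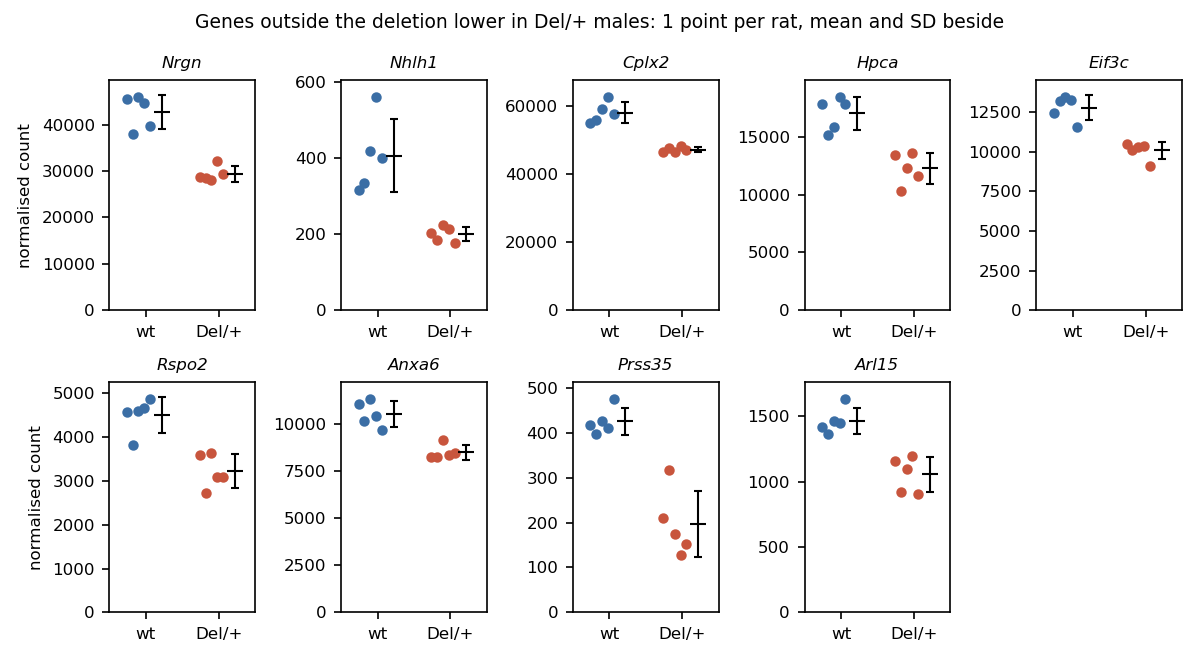
Normalised counts (y axis, from 0) of 9 of the 10 genes outside the deleted interval with the smallest adjusted p among those lower in Del/+ males. Each point is 1 rat, with the group mean and SD (n = 5) beside it. In all 9 genes every Del/+ rat lies below every wt rat.

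Some of the 27 lower genes act in transcription or on RNA, roles read from the names of the genes with no list behind them. Nhlh1, a basic helix-loop-helix factor of developing neurons, was at 316.5, 335, 419, 561 and 400.3 in wt and 202, 185, 223.5, 214 and 177 in Del/+ rats. Its wt rats were spread widely, and all exceeded the highest Del/+ rat (log2 fold change -1.02 ± 0.15 (SE), adjusted p = 0.00487, edgeR). Eif3c, a subunit of translation initiation factor 3, was at 12409, 13174, 13440, 13244 and 11525 in wt and 10462, 10103, 10316, 10371 and 9110 in Del/+ rats, with no overlap (log2 fold change -0.34 ± 0.06 (SE), adjusted p = 0.0176, edgeR). Smaller falls were those of Rbfox3, the splicing factor known as NeuN (-0.28 ± 0.05, adjusted p = 0.0299, edgeR), Hnrnpul2, a nuclear ribonucleoprotein (-0.28 ± 0.05, 0.0422), and Ppp1r10, a nuclear targeting subunit of protein phosphatase 1 (-0.31 ± 0.06, 0.0429). Crtc1, a coactivator of CREB, was at -0.35 ± 0.07 (0.0429), and the immediate early factor Egr3 at -0.33 ± 0.07 (0.0462). Egr3 was the gene of the 41 whose groups overlapped, wt rat 2 having 2270.0 and Del/+ rat 5 2287 normalised counts.

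Among secreted and membrane proteins, Rspo2, a secreted enhancer of Wnt signalling, was at 4564, 3820, 4602, 4674 and 4863 in wt and 3594, 2725, 3638, 3094 and 3082 in Del/+ rats. Wt rat 2 was the lowest wt rat (log2 fold change -0.48 ± 0.08 (SE), adjusted p = 0.0234, edgeR). Prss35, a secreted protease-like protein, counted 417, 397, 427, 410.5 and 474 in wt and 211, 317, 175, 128 and 152 in Del/+ rats. Del/+ rat 2 was the highest of its group, still under all wt rats (log2 fold change -1.11 ± 0.20 (SE), adjusted p = 0.0297, edgeR). Arl15, a small GTPase of the ARF-like family, was at 1419, 1364, 1462, 1450 and 1628 in wt and 1155, 919, 1093, 1193 and 908 in Del/+ rats, without overlap (log2 fold change -0.47 ± 0.09 (SE), adjusted p = 0.0297, edgeR). The channel Trpc5 (-0.35 ± 0.07, adjusted p = 0.0325, edgeR), the potassium channel subunit Kcnab2 (-0.25 ± 0.05, 0.0338) and the serotonin receptor Htr5b (-0.35 ± 0.07, 0.0338) were lower as well.

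The remaining lower genes were Nefm and 5 others. Nefm, the middle neurofilament subunit, was at -0.42 ± 0.08 (adjusted p = 0.0351, edgeR), Mapre3, a microtubule plus-end protein, at -0.38 ± 0.07 (0.0313), Mical2, an enzyme that oxidises actin, at -0.30 ± 0.06 (0.0451), and Tgfb1i1, a focal adhesion protein, at -0.61 ± 0.12 (0.0453). Wbp2, which binds WW domains, was at -0.36 ± 0.07 (0.033). AABR07044001.4, a gene with no name beyond its clone, had the largest fall at -1.35 ± 0.25 (0.0313), on levels of 24.9 to 115 normalised counts.

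Several of the 14 higher genes encode channels and transporters. Kcnt1, a sodium-activated potassium channel, was at 753, 679, 715, 703 and 570.1 in wt and 938, 1328, 1025, 846 and 1094 in Del/+ rats. Slc9a5, a sodium-proton exchanger of neurons, was at 364, 448, 457, 419 and 431 and 518, 576, 655, 609 and 676.5. Neither gene had overlapping groups (0.61 ± 0.11 and 0.52 ± 0.10 log2 units ± SE, adjusted p = 0.0313 for both, edgeR). Slc5a2, a sodium-glucose cotransporter, counted 10.4, 9.08, 7.64, 11.9 and 9.26 in wt and 27.3, 25.6, 34.1, 28.6 and 28.2 in Del/+ rats, higher in each Del/+ rat on very few reads (log2 fold change 1.58 ± 0.28 (SE), adjusted p = 0.0254, edgeR).

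Others encode secreted or signalling proteins. Cbln2, a synaptic organiser that binds neurexins, was at 427, 466, 503, 455 and 518 in wt and 618, 753, 840.1, 829 and 732 in Del/+ rats. All Del/+ rats were higher, and the mean ± SD (n = 5) rose from 474 ± 36.8 to 754 ± 89.5 (log2 fold change 0.67 ± 0.10 (SE), adjusted p = 0.0038, edgeR). Pdgfd, a platelet-derived growth factor, counted 169, 214, 211, 174 and 239 in wt and 349, 302, 322, 333 and 339.7 in Del/+ rats. Its Del/+ rats were close to each other and above all wt rats (log2 fold change 0.71 ± 0.12 (SE), adjusted p = 0.016, edgeR). Gvin1, a very large GTPase induced by interferon, was at 23.0, 19.2, 16.2, 25.9 and 39.1 in wt and 62.5, 52.1, 111, 89.6 and 91.5 in Del/+ rats, the largest rise of the 14 (log2 fold change 1.72 ± 0.29 (SE), adjusted p = 0.0165, edgeR). Gvin1 belongs to a family of near-identical copies, so that its counts are uncertain.

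Taf1d, a subunit of the factor that recruits RNA polymerase I, was at 113, 115, 89.8, 133 and 139 in wt and 358, 280.4, 312, 190.3 and 189 in Del/+ rats. Del/+ rats 4 and 5 were the lowest of their group but above all wt rats (log2 fold change 1.17 ± 0.19 (SE), adjusted p = 0.016, edgeR). Doc2g counted 37.98, 47.4, 45.8, 43.2 and 50.4 in wt and 131, 107, 74.8, 85.0 and 93.4 in Del/+ rats, again with no overlap. Dnhd1, which carries a dynein heavy chain domain, was at 245, 235, 298, 257 and 248 in wt and 422, 446, 479, 309.5 and 413 in Del/+ rats (log2 fold change 0.69 ± 0.12 (SE), adjusted p = 0.0254, edgeR). Klhdc8a, a protein of kelch repeats, was at 154, 142, 85.9, 89.7 and 76.2 in wt and 194, 343, 219, 221 and 223 in Del/+ rats, with Del/+ rat 2 far above the others (log2 fold change 1.13 ± 0.22 (SE), adjusted p = 0.0408, edgeR). The remaining higher genes were Ppm1m, a protein phosphatase (0.69 ± 0.14, adjusted p = 0.0424, edgeR), the mitochondrial protein Fam210a (0.27 ± 0.05, 0.0429), Prss53, a serine protease (1.57 ± 0.31, 0.0453), and RF00100, a copy of the 7SK RNA family (1.31 ± 0.26, 0.0432), whose many copies make its counts uncertain.

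**Figure D3:**
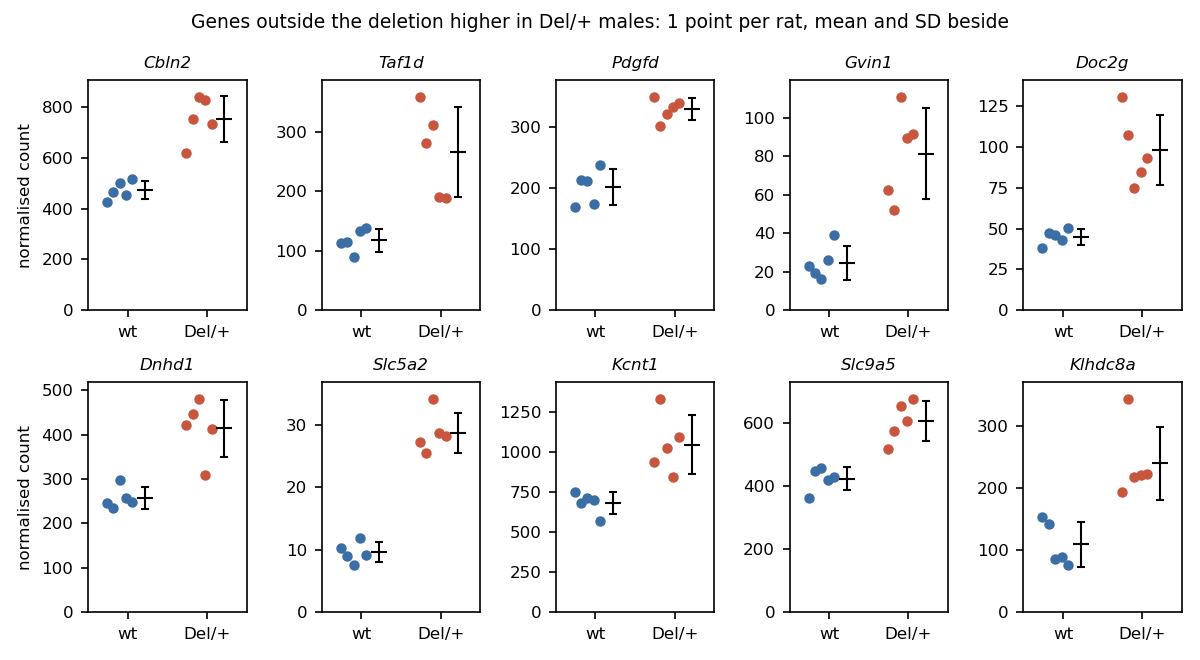
Normalised counts (y axis, from 0) of the 10 genes outside the deleted interval with the smallest adjusted p among those higher in Del/+ males. Each point is 1 rat, with the group mean and SD (n = 5) beside it. Every Del/+ rat lies above every wt rat in all 10 genes, and the counts of Slc5a2 and Gvin1 do not exceed 34.1 and 111 in any rat.

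Maz was among the genes that fell most in the interval, and the letters of the motif MAZ binds were searched in the promoters of the genes that changed elsewhere. RefSeq promoters of the GRCr8 build were matched by symbol for 18 of the 27 lower and 13 of the 14 higher genes, and the 250 bases before each start were read. The motif GGGAGGG, on either strand, was present in 6 of the 18 (33.3%) and 2 of the 13 (15.4%), in 25.8% of the promoters of the tested genes (10887 matched) and in 18.9% of all 27457 promoters. Motif GCGGGGGCG, of EGR factors, was present in 0 of the 18 and 2 of the 13, against 4.7% for the tested genes. These counts are descriptions, and a match is not a site in use. The promoter of Cplx2 held 4 matches, of which 2 overlap each other, shown in capitals, and that of Nrgn, the gene with the smallest adjusted p, held none. Both are given on the strand of the gene.
Cplx2, chr17:10236754-10237003, minus strand, GRCr8: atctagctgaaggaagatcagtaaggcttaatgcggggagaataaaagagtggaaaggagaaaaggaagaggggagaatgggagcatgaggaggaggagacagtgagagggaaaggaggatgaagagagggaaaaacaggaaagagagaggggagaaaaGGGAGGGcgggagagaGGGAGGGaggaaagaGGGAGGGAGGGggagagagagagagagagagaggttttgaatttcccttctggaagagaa
Nrgn, chr8:45452418-45452667, minus strand, GRCr8: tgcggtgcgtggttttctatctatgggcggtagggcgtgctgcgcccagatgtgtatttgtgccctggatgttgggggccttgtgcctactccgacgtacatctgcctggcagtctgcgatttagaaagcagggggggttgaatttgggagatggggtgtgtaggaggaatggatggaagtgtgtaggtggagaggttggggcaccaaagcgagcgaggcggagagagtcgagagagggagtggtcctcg

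Some of the 41 genes were neighbours of the deletion on chromosome 1. In the RefSeq gene order of GRCr8, to which 13745 of the 15630 tested genes (87.9%) were matched by symbol, 10 of the 39 placed genes (25.6%) lay on chromosome 1, which holds 12.1% of the placed tested genes outside the interval, and 5 were among the 50 tested genes nearest on either side. That is 5.0% of these 100 genes, against 0.409% of all genes tested, and 14 of them had groups that did not overlap, against 3.19%. The window was chosen after these values were seen. Eif3c was the fourth tested gene before Sult1a1. Prss53, Tgfb1i1 and Slc5a2 lay after Spn, at places 30, 42 and 43 among the tested genes on that side, while none of the 25 nearest tested genes on that side passed. The median log2 fold change of the 100 neighbours was -0.01. In the list of 46 flanking genes, of which 41 were tested, 1 rose and 3 fell past the adjusted threshold. The log2 fold change was positive for 16 of the 41 and negative for 25. At an unadjusted p under 0.05 (edgeR), 17.1% were lower and 7.32% higher, against 7.01% and 7.38% of all tested genes. The split depended on the genes taken. Of the 100 neighbours, 11 were lower and 8 higher at that threshold, and of the 25 nearest on each side 4 were lower and 4 higher.

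Lists of genes were then read by counts, with the values of all tested genes beside them, since no test of a list was made. In the list of postsynaptic density and CaMKII signalling genes, 3 of 54 tested genes passed, Nrgn, Camk2a and Synpo, all lower. At an unadjusted p under 0.05, 25 members (46.3%) were lower and 1 (1.85%) higher, against 7.01% and 7.38% of all tested genes, and the median log2 fold change was -0.15 against 0.01. Of the 48 genes of synaptic vesicle release, Cplx2 and Doc2b passed, and 18 (37.5%) were lower and 2 (4.17%) higher at the unadjusted threshold, with a median of -0.11. With library size alone as the scaling, these medians were -0.05 and -0.0004 while that of all genes was 0.12. With 1 rat left out they ranged from -0.18 to -0.14 and from -0.12 to -0.08.

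For the glutamate receptors and their auxiliary subunits, no gene of 40 passed edgeR's test, DESeq2 called 2 higher and 7 lower and limma-voom none, and at the unadjusted threshold 12 (30.0%) were lower and 4 (10.0%) higher. The smallest p values belonged to Nptx1 (-0.38 ± 0.08, adjusted p = 0.0661, edgeR), a secreted pentraxin that clusters AMPA receptors, Shisa6 (-0.51 ± 0.11, 0.0773) and Cnih2 (-0.24 ± 0.06, 0.107), auxiliary subunits of those receptors. Of 55 potassium and HCN channel genes, Kcnt1 rose and Kcnab2 fell in edgeR (DESeq2 1 higher and 4 lower, limma-voom 1 each way). At the unadjusted threshold 9 (16.4%) were lower and 5 (9.09%) higher, with a median of 0.02. Over all tested genes these shares were 7.01% and 7.38%. None of 32 sodium and calcium channel genes passed in edgeR (DESeq2 1 higher and 1 lower, limma-voom none), Scn3b being at -0.36 ± 0.08 (adjusted p = 0.0728, edgeR). None of 36 genes of GABA signalling and interneurons passed (DESeq2 1 higher, limma-voom none), with 6 higher and 3 lower at the unadjusted threshold and Gabrb2 at 0.26 ± 0.07. Of 29 immediate early genes, Egr3 alone passed in edgeR (DESeq2 1 higher and 2 lower, limma-voom none). At the unadjusted threshold 4 of these were higher and 4 lower, and the median log2 fold change was 0.05.

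The pathways of 2 interval genes were read in the same way. None of 42 genes of the ERK cascade outside the interval passed in edgeR, DESeq2 called 4 lower and limma-voom none, and 6 were lower and 1 higher at the unadjusted threshold, with a median of -0.05. Of 34 genes of the CUL3 ligase, its adaptors and RhoA signalling, none passed in edgeR (DESeq2 1 higher and 1 lower, limma-voom none), with 5 lower and 3 higher at the unadjusted threshold and a median of 0.01. Diaph1, a RhoA effector, was at -0.24 ± 0.07 (adjusted p = 0.133, edgeR).

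**Figure D4:**
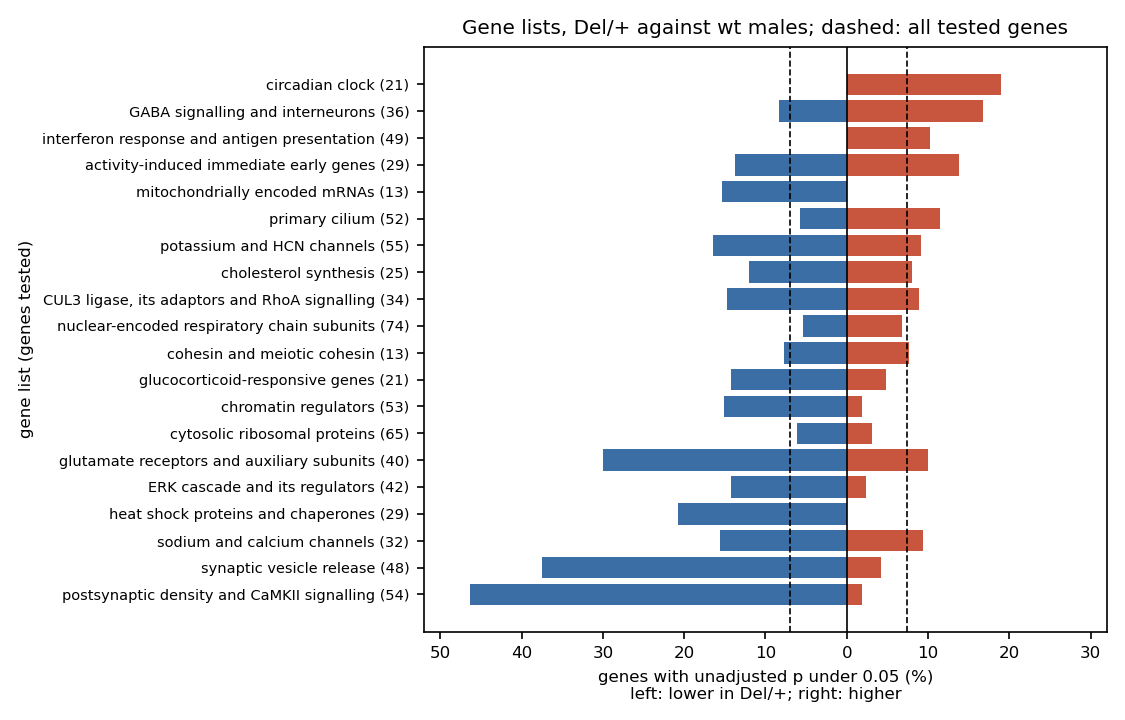
Share of tested genes (x axis, %) of each list with an unadjusted p under 0.05, lower in Del/+ males to the left and higher to the right. The number of genes tested is in brackets and the dashed lines give the shares of all tested genes, 7.01% lower and 7.38% higher. The longest bars are the 46.3% of postsynaptic and 37.5% of vesicle release genes that were lower.

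In the other lists, Gvin1 was the member of 49 interferon and antigen presentation genes that passed, and 5 were higher and 0 lower at the unadjusted threshold. Nothing passed in edgeR or limma-voom among 74 nuclear-encoded respiratory chain subunits (5 higher and 4 lower unadjusted, DESeq2 1 lower), 13 mitochondrially encoded mRNAs (0 and 2, DESeq2 none), 65 ribosomal proteins (2 and 4, DESeq2 2 lower), 52 primary cilium genes (6 and 3, DESeq2 1 each way), 21 glucocorticoid-responsive genes (1 and 3, DESeq2 1 lower) and 29 heat shock proteins and chaperones (0 and 6, DESeq2 2 lower). The same held for 21 circadian clock genes (4 and 0, DESeq2 1 higher), 25 of cholesterol synthesis (2 and 3, DESeq2 1 higher), 53 chromatin regulators (1 and 8, DESeq2 1 lower) and 13 of cohesin (1 and 1, DESeq2 1 lower), where Rad21l1, a meiotic cohesin subunit, was at -1.40 ± 0.29 (adjusted p = 0.0589, edgeR).

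Markers of the tissue and of its neighbours were read per rat. In bulk tissue, fewer cells of a type and less RNA per cell cannot be told apart. Sums of markers are in CPM, counts scaled to a fixed library total without TMM, while fold changes use TMM. The TMM factors were 0.9058 to 1.0358 in wt and 1.0282 to 1.0535 in Del/+ rats. Dividing by them would lower every Del/+ sum and raise the sums of wt rats 1, 3, 4 and 5. Hippocampal markers summed to 425 to 688 CPM in wt and 461 to 652 CPM in Del/+ rats for the dentate granule list. For the CA1 list the sums were 677 to 783 and 651 to 785 CPM. The CA1 marker Fibcd1 was at 0 in all 10 rats, and Lct (dentate) and Iyd (CA3) were at 0 in 1 rat each and low in the others. Of the markers of neurons in general, Rbfox3 and Nefm fell, and the other 8 of 10 did not pass in edgeR. Over all 10, DESeq2 called 3 lower and limma-voom 2, with Rbfox3 and Nefm among them in both. The log2 fold change was positive for 5 of the 10 and negative for 5. At the unadjusted threshold 4 (40%) were lower and 1 (10%) higher, against 7.01% and 7.38% of all tested genes. The sum of these 10 neuron markers, without TMM, was 2925 to 3412 CPM in wt and 3098 to 3251 CPM in Del/+ rats. Their median log2 fold change was -0.06 with TMM and 0.05 with library size alone, so the ranges of the sums depend on the scaling. No marker of CA1, CA2, CA3 or dentate neurons passed (DESeq2 1 lower in CA3, limma-voom none), although 4 of 7 CA3 genes were lower and 1 higher at the unadjusted threshold. The log2 fold change was negative for 6 of 6 tested CA1, 7 of 8 dentate and 5 of 7 CA3 genes, with medians of -0.16, -0.16 and -0.23, beside -0.15 for the postsynaptic list and 0.01 for all genes, and it was positive for 3 of 5 CA2 genes (median 0.15). The part of these markers in the synaptic lists was not tested. Among the CA3 genes, Nectin3 was at -0.32 ± 0.09 (adjusted p = 0.133, edgeR).

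The 10 tested thalamus markers were all higher on average in Del/+ males, with a median log2 fold change of 0.73, and none passed in edgeR, DESeq2 or limma-voom. Their sum was 177, 546, 205, 199 and 192 CPM in wt rats 1 to 5 and 429, 204, 460, 621 and 381 CPM in Del/+ rats 1 to 5. Wt rat 2 thus resembled the Del/+ rats 1, 3, 4 and 5, and Del/+ rat 2 the other wt rats. Prkcd, a defining thalamus gene, was at 6.48 to 114 CPM in wt and 14.1 to 131 CPM in Del/+ rats, while Gbx2 was at 0 in 4 of the 10 rats. Among the 27 lower genes, wt rat 2 was the lowest wt rat in 17 and the median deviation from the wt mean was -0.15 in this rat, against 0.02 to 0.07 in the other wt rats and -0.41 to -0.31 in the Del/+ rats. Choroid plexus markers were high in 3 rats, with sums of 6450, 138, 1096, 142 and 108 CPM in wt rats and 167, 146, 1219, 129 and 103 CPM in Del/+ rats. Of that list, Otx2 was at 0 in all 10 rats. Ependymal markers followed in wt rat 1 (173 CPM against 64.7 to 92.0 CPM in all others), and 5 of 13 were lower and 0 higher at the unadjusted threshold.

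The part of these markers in the results was not tested, but fits with them as covariates were run, chosen after the data were seen. With the thalamus level as a covariate, 9 genes passed outside the interval, 4 of the 41 among them (Nrgn, Cbln2, Kcnt1 and Dnhd1), and with the choroid plexus level 11, all among the 41. Without the 3 rats with the most choroid plexus RNA, Nhlh1 alone passed outside the interval and 20 genes passed inside it. Fold changes moved less than calls. The 41 genes kept their sign in each of these fits, with a median ratio to the original log2 fold change of 0.954, 0.974 and 0.918. The most abundant single gene, the mitochondrial AY172581.24, took 9.45, 2.93, 5.60, 6.26 and 8.70% of the counted reads in wt rats and 4.87, 4.98, 3.91, 3.60 and 3.81% in Del/+ rats. With its log2 share as a covariate, 6 genes passed outside the interval, Nrgn, Nhlh1, Taf1d and Eif3c being 4 of the 41, and 20 inside. Its part in the other calls was not tested.

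Blood markers were at 128 to 154 CPM in wt and 163 to 275 CPM in Del/+ rats. The sums of the groups did not overlap on this scale, which leaves out TMM. Wt rat 1 had the highest wt sum (153.7 CPM) and a TMM factor of 0.9058. Del/+ rat 4 had the lowest Del/+ sum (163.3 CPM) and a factor of 1.0386, so the separation does not hold once sums are divided by these factors. None of the 8 passed (DESeq2 2 higher, limma-voom none), and 2 were higher and 0 lower at the unadjusted threshold. Astrocyte markers summed to 5249 to 6483 CPM in wt and 6253 to 7933 CPM in Del/+ rats, with Fgfr3 at 0.35 ± 0.08 (adjusted p = 0.0663, edgeR), and microglia markers to 467 to 545 and 503 to 649 CPM. In the lists of astrocytes, oligodendrocytes and their precursors, microglia, endothelial cells, pericytes, meningeal fibroblasts, cerebral cortex, striatum and immature neurons no gene passed in edgeR or limma-voom, while DESeq2 called 1 higher in each of astrocytes, microglia, pericytes, meninges and cortex. Their unadjusted counts were 10 higher and 5 lower in all, in lists of 7 to 12 tested genes each. The largest shares were 3 of 12 astrocyte markers higher (25%) and 2 of 7 immature neuron markers lower (28.6%). Of all tested genes, 7.38% were higher and 7.01% lower at that threshold.

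**Figure D5:**
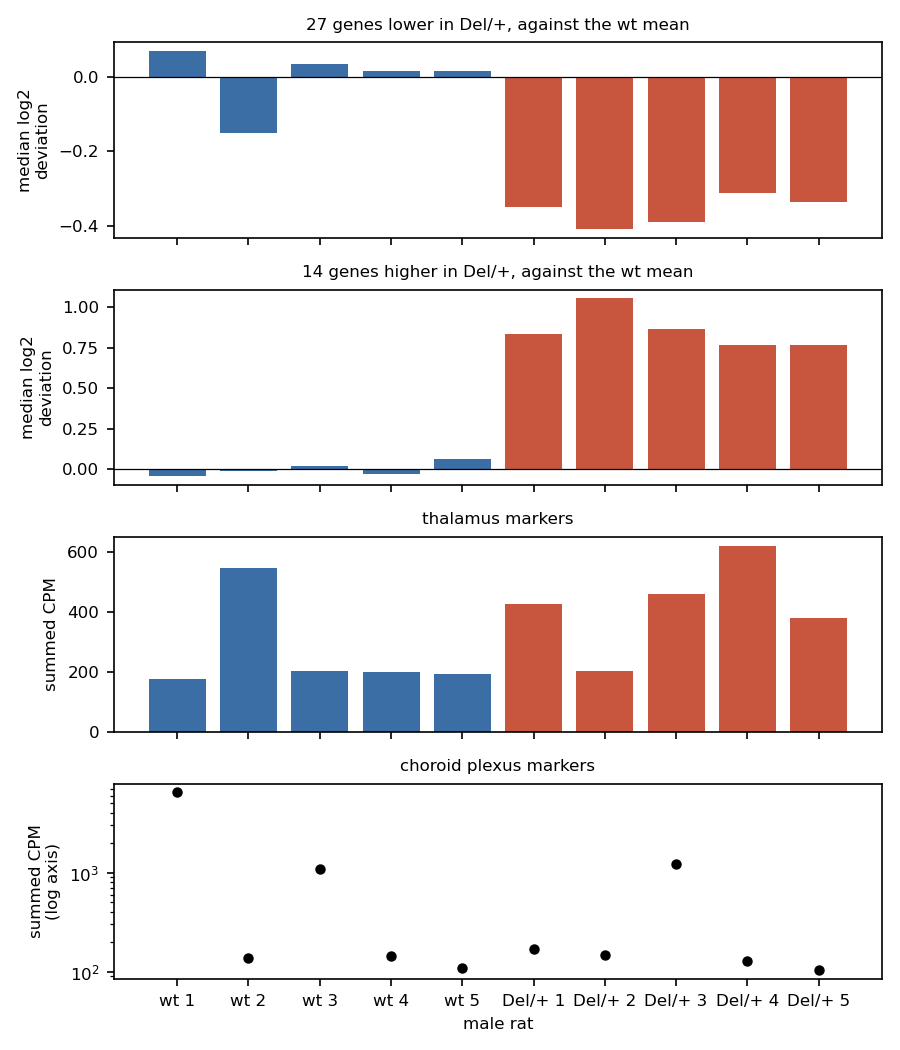
Values of each male rat (x axis). Upper panels, median deviation (log2 CPM) from the wt mean over the 27 lower and the 14 higher genes outside the deleted interval; lower panels, summed CPM of thalamus markers and, on a log axis, of choroid plexus markers. Wt rat 2 is the lowest wt rat for the 27 genes (-0.15) and the highest for thalamus markers (546 CPM), and wt rat 1 is the highest for choroid plexus markers (6450 CPM).

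In females the interval genes were lower too, while no gene called outside the interval in males passed the test. All 27 interval genes were lower in Del/+ females, 19 of them past the threshold (edgeR), with a median log2 fold change of -0.98, and none had a genotype by sex interaction past the threshold (0 of 27 by edgeR, 8 at an unadjusted p under 0.05, with 10 of 16193 genes or 0.0618% called over all genes tested in 20 libraries). Of the 41 genes outside the interval, all were tested in females and 0 passed there in edgeR, 13 having an unadjusted p under 0.05. The share of all genes at that threshold in females is not given here. In females the log2 fold change had the sign seen in males for 9 of these 41. Its median was 0.16 for the 27 genes that were lower in males and -0.12 for the 14 that were higher. Tissue markers also went opposite ways in the sexes in some lists and the same way in others. Medians of the same sign, males then females, were -0.46 and -0.11 for ependymal and -0.04 and -0.18 for oligodendrocyte markers. They were 0.11 and 0.09 for cerebral cortex markers and 0.002 and 0.03 for oligodendrocyte precursors. For thalamus markers, males had a median of 0.73 and females of -0.54. Choroid plexus markers were at -2.83 and 3.38, and markers of neurons in general at -0.06 (0.05 with library size alone) and 0.19, and their part in the difference between the sexes was not tested.

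The interaction itself passed for 7 of the 41, Nrgn, Anxa6, Camk2a, Kcnab2, Hnrnpul2, Mical2 and Pdgfd. The test uses the male libraries that chose these genes, and so it is not independent of that choice. Nrgn was at -0.54 ± 0.07 in males and 0.31 ± 0.12 in females (log2 ± SE, interaction adjusted p = 0.035, edgeR), and Camk2a at -0.33 ± 0.06 and 0.25 ± 0.09 (0.0403). For Anxa6 the values were -0.31 ± 0.06 and 0.30 ± 0.08 (0.0221), and for Pdgfd, which was higher in males, 0.71 ± 0.12 and -0.49 ± 0.16 (0.035). Each of the 7 had a female log2 fold change of the opposite sign. The count of 7 was between 0 and 26 with 1 of the 20 libraries left out. It was 0 without male wt rat 1, 3 or 4 or male Del/+ rat 2, where 39, 39, 39 and 40 of the 41 still had an unadjusted interaction p under 0.05. The share of all genes at that unadjusted threshold is not given here.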

How the data were processed

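Hippocampal polyA RNA of 20 LE rats was sequenced as single-end reads of 50 bp from TruSeq Stranded libraries, 1 library per rat. The authors aligned reads to rn6 with HISAT2 and counted them per gene of Rno6.v96 with HTSeq-count, after bcl2fastq 2.17.1.14. They deposited these raw counts, not normalised, and used R 3.6, FCROS and DESeq2 downstream. The other versions and the strand setting of the counter are not given in the sources used here, so reads of overlapping antisense genes may be shared.

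Rows of reads given to no gene were left out of totals and tests. They were present for Del/+ male rats 4 and 5, where 14.1 and 14.4% of the listed reads had no feature, 0.314 and 0.311% were ambiguous and 39.1 and 40.7% did not align uniquely. Totals were 40908785 to 46141518 counted reads.

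The 5 Del/+ and 5 wt males were compared with edgeR 4.0.16 (limma 3.58.1, R 4.3.3) by a robust quasi-likelihood test with TMM scaling, genes kept by filterByExpr with a minimum count of 10, and Benjamini-Hochberg adjustment over all genes at 0.05. The genotype by sex interaction was fitted on all 20 libraries. Named genes outside the interval were those past the threshold, with values per rat for the 10 of smallest adjusted p in each direction, and inside it a fixed set with values per rat. Listed genes that missed the threshold were named as those of smallest p in their list. Confidence intervals of fold changes are 95% and unadjusted. The gene lists, the named genes of the interval and the comparison itself were chosen with earlier results of these data known.

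Alternatives were other scalings, count filters, DESeq2 1.42.0, limma-voom, a replicate block, 1 surrogate variable (sva 3.50.0), covariates and leaving out each rat. The pipeline was tested on simulated data. Library pairs all differed by more than counting noise, with chi-square over degrees of freedom from 16.0 to 214 in 45 pairs. Each sample is 1 rat, so p-values measure the spread between rats. FCROS was not used here. Some results are not reported here.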

Additional observations from a re-analysis of the deposited data

Results flagged for a closer look

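Some rats stood apart from the other 4 of their group. The gap to the nearest rat, as a share of the range of the group, passed Dixon's critical value of 0.71 in 15 of 178 groups of 5 that were looked at, and chance flags about 1 in 20. Among the genes outside the interval it was 0.734 for Eif3c, 0.712 for Crtc1 and 0.753 for Egr3, all in Del/+ rat 5. It was 0.714 for Rspo2 in wt rat 2, 0.769 for Anxa6 in Del/+ rat 3, and 0.72 for Tgfb1i1 and 0.808 for Klhdc8a in Del/+ rat 2. Inside the interval it was 0.731 for AABR07005779.6 in wt rat 2 and 0.92 for Pagr1 in Del/+ rat 4, which had 45.3 normalised counts.

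Marker sums stood apart for the thalamus list in wt rat 2 (0.924), the choroid plexus list in wt rat 1 (0.844) and Del/+ rat 3 (0.943), the ependymal list (0.847) and the striatum list (0.813) in wt rat 1, and the astrocyte list in Del/+ rat 1 (0.711).

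The deletion effect differed between males and females by the genotype by sex interaction in 7 of the genes called outside the interval in males. The interaction adjusted p (edgeR) was 0.0221 for Anxa6, 0.035 for Nrgn, Kcnab2, Hnrnpul2 and Pdgfd, and 0.0403 for Camk2a and Mical2. The male libraries that chose these genes also enter this test. Median log2 fold changes of thalamus markers (0.73 in males, -0.54 in females) and choroid plexus markers (-2.83 and 3.38) were opposite in the sexes too, and their part in the interaction was not tested.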

How the results depend on the processing

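The 23 calls inside the deleted interval stayed between 20 and 23 in all 25 alternatives. The 41 genes called outside the deleted region in males, and so all 64, did not. In the order of all calls, calls outside, outside higher and outside lower, against 64, 41, 14 and 27, they were 184, 161, 153 and 8 with library size alone, 120, 97, 34 and 63 with no filter on low counts, 472, 449, 189 and 260 with DESeq2, and 183, 160, 65 and 95 at an adjusted p under 0.1. They were 34, 12, 6 and 6 with 1 surrogate variable and 26, 6, 3 and 3 with the AY172581.24 share as a covariate. With covariates chosen after seeing the data they were 30, 9, 7 and 2 (thalamus markers) and 33, 11, 5 and 6 (choroid plexus markers). Without the 3 libraries of highest choroid plexus markers, also chosen after seeing the data, they were 21, 1, 0 and 1 in edgeR, with 557 genes higher outside at an unadjusted p under 0.05. Without mitochondrially encoded genes 46 were lower outside. Leaving out 1 rat gave 25 to 184, 4 to 161, 2 to 62 and 2 to 103. The cause was not tested, though fewer rats were fitted where rats were left out.

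With a replicate block, 64 genes were called outside, 24 of them among the 41, and 24 were higher. The correlations of same-numbered rats were -0.015, -0.052, 0.107, 0.098 and 0.078, and 1 of 5 correlated best with its own number, so the numbers do not pair the rats. The 7 interactions became 11 with DESeq2 size factors, 21 with library size alone, 33 with DESeq2, 13 with no filter, 2 with the replicate block, and 0 to 26 with 1 library left out.

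For named genes, 3414 of the planned refits kept their side of the threshold, 368 lost the call and 94 gained one. Of the refits added after seeing the data, 418 kept their side and 113 lost the call. A change of sign was counted only where the gene passed in the original fit or in the refit, and none was found there. Of the list medians, 477 moved by less than the spread between rats and 30 by more. Genes of few reads, such as Slc5a2, Prss53 and Gvin1, are the least precise.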
